A study of Mus musculus with 27 samples.

Results

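The stretch described here lies on mouse chromosome 2 just beyond the 3′ end of Meis2 (build mm10, chr2:115200001-115860000, 660 kb, 66 bins of 10 kb) and carries the gene BC052040; it is called the left side below. Its contacts were taken by position alone: every pair of different 10 kb bins with one end in the left side and the other end either in the left side or in the gene desert beyond the Meis2 promoter (chr2:116080001-117080000, 1000 kb, 100 bins), called the desert side. This gave 2145 pairs within the left side and 6600 pairs that span Meis2, together 8745 of the 35778 pairs of different bins in the captured region (chr2:114820001-117500000). The 220 kb between the 2 sides (chr2:115860001-116080000), which holds Meis2, was left out by the same rule.

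Capture Hi-C ligates neighbouring DNA in fixed nuclei and pulls out chosen loci with probes before the joined ends are sequenced and counted. Here 3 libraries came from testis of wild-type mice and 3 from testis of mice homozygous for the deletion named B396.BOS, made with CRISPR-Cas9. The deletion removes a boundary between topologically associating domains (TADs) on chromosome 4, so the chromosome 2 locus was captured but carries no deletion in either genotype. The labels give neither strain nor age, and do not say whether libraries of 1 genotype came from separate animals; p-values measure the spread between these libraries. The libraries are bulk tissue, so that a change in a contact within a cell type and a change in the share of that cell type cannot be told apart.

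A TAD is a stretch of chromosome whose parts meet each other more often than they meet the neighbouring stretches, and a boundary between TADs shows as a dip in the contacts that pass over it. Contact frequency falls steadily with distance along the chromosome, so a pair of bins is read against the mean of other pairs at the same distance. Meis2 encodes a homeodomain transcription factor used in the development of limb, heart and nervous system, and it lies beside a large gene desert. Tmco5, at the far part of that desert, encodes a transmembrane coiled-coil protein of the testis.

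The reference places 11 genes on the left side: 8 long non-coding RNA genes, 1 pseudogene, 1 microRNA gene and 1 protein-coding gene. The protein-coding gene is BC052040 (chr2:115580907-115778774, plus strand), and Mir1951 (chr2:115638725-115638813) lies within it. The promoters of 3 genes and the mature microRNA are given because their bins are named in the results below. For BC052040 the table gives the 250 bases before a transcript start inside the gene as annotated (chr2:115581466-115581715, plus strand). They lie in the first of the gene's bins, whose balanced contacts with the desert were low. Those of Gm39911 (chr2:115550462-115550711, plus strand) lie in the bin of the insulation minimum. Those of 3110099E03Rik (chr2:115512202-115512451, minus strand) lie in the left-side bin of one of the strongest spanning contacts. Sequences are from RefSeq (GRCm38.p6), 5′ to 3′; capitals mark CpG dinucleotides in the promoters and the seed, bases 2 to 8, in the microRNA.
BC052040 promoter: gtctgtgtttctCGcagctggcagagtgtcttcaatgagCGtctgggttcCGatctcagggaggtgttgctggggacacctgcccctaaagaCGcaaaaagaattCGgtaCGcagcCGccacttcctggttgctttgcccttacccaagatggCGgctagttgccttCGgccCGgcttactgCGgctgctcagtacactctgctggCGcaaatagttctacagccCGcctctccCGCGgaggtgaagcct
Gm39911 promoter: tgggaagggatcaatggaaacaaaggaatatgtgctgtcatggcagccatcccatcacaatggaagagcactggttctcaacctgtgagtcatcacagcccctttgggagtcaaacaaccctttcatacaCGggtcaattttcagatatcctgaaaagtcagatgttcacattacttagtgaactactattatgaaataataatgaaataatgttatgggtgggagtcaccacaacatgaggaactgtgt
3110099E03Rik promoter: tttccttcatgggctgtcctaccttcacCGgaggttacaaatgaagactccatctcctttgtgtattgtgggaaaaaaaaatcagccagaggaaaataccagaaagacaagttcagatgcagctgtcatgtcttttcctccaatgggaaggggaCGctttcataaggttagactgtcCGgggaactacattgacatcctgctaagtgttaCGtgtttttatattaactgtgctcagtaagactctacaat
mmu-miR-1951: gUAGUGGAgacugguguggcua
The BC052040 promoter holds 15 CpG in 250 bases, more than 72.7% of the 32851 promoters in the table. The 3110099E03Rik promoter holds 4 and the Gm39911 promoter 1, against a median of 6 over all promoters. None of the 11 genes, nor Meis2 or Tmco5, is among the 566 genes in the authors' deposited table of trans associations with genotype in testis RNA, which lists p-values up to 0.00998; their expression was not analysed here beyond that.

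The libraries held 5669898 to 7794641 contacts, of which the member pairs took 5.51% to 6.09%. Within the left side the libraries counted 244355 to 318993 contacts, with a median of 52 to 64 per pair and no empty pair. Spanning pairs held 100870 to 123537 contacts, with a median of 14 to 18 per pair, and 65 to 75 of the 6600 pairs were empty in any 1 library. All 2145 within-side pairs and 6342 of the 6600 spanning pairs reached a mean count of 5. Libraries differed from each other by more than counting error over the member pairs (chi-square per degree of freedom 1.07 to 1.29), so each was counted as a sample of its own. Replicate 2 of both genotypes differed from the other 4 libraries in the profile along the left side, and the genotype comparisons are also given without it. No bin of the left side was thinly covered, while 3 bins of the desert side were (chr2:116480001-116500000 and chr2:116520001-116530000).

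Whether the left side is a domain of its own was not tested: its ends were set by position, and the bins there have no insulation score. Inside it, dips of 0.2 or more in the contacts passing over a bin numbered 1 with 100 kb windows and 3 with 50 kb windows. The BC052040 gene body, 20 bins, contacted the desert beyond Meis2 less than the rest of the left side did, in all 6 libraries. The map of balanced contacts shows this as a blue band level with the gene. In that map the counts were balanced, that is, scaled so that every bin has the same total, and divided by the mean of pairs of the same kind at the same distance.

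**Figure D1:**
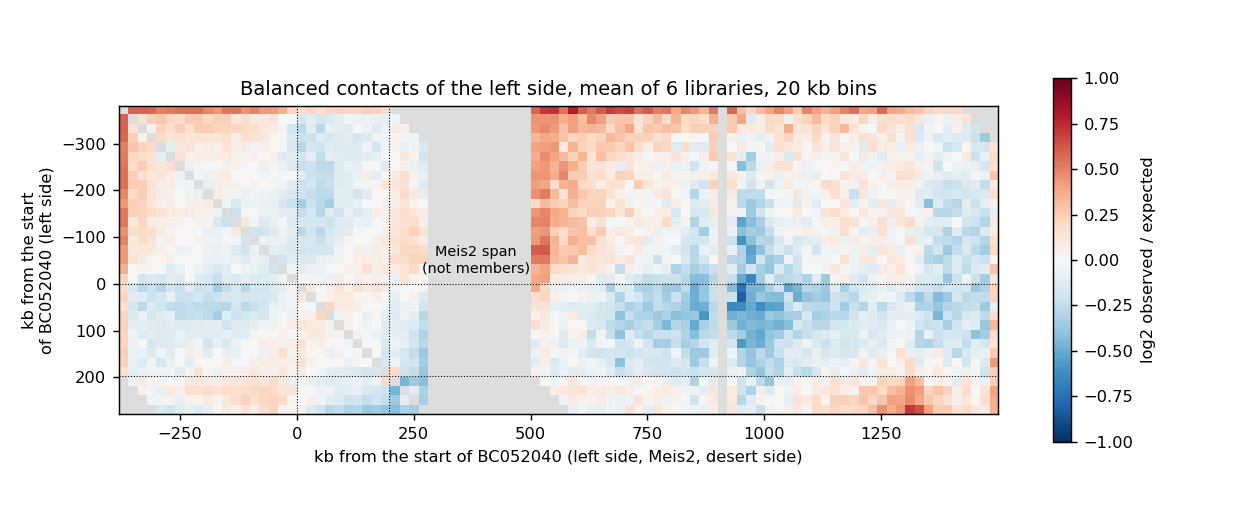
Balanced contacts of the left side with itself (left block) and with the desert side (right block), as log2 observed over expected in 20 kb bins, mean of 6 libraries; both axes are in kb from the start of BC052040, dotted lines mark the ends of that gene, and grey cells are not members, are thinly covered or lie at distances with too few pairs. The band between the dotted lines is low over most of the desert, and a red spot sits at the lower right, where the bin beside Meis2 meets the end of Tmco5.

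Counts fell with distance within the left side in the same way in every library. Neighbouring bins shared 1365 contacts on average, pairs 50 kb apart 198, pairs 100 kb apart 101, pairs 200 kb apart 55.5 and pairs 500 kb apart 29.5. Neighbouring bins alone made up 29.3% to 31.9% of the contacts within the left side. The slope of log10 count on log10 distance from 20 to 500 kb was -0.846, -0.841 and -0.856 for wild-type replicates 1 to 3, and the homozygous replicates gave -0.835, -0.835 and -0.844. The genotypes overlapped, and the difference of 0.0095 was near the larger SD of 0.0079 (exact permutation p = 0.2, two-sided, 3 against 3 libraries; the smallest possible p is 0.1). It was 0.0052 without wild-type replicate 3 and 0.0182 over 50 to 300 kb.

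Against the desert side, the left side had higher counts at equal distance, while no difference in slope held across the treatments of the data. The slope within the desert was -0.847 ± 0.011 (SD, n = 6 libraries), against -0.843 ± 0.008 within the left side, and the difference within libraries of 0.0037 gave an exact sign-flip permutation p of 0.531. It was -0.0101 after balancing (exact sign-flip p = 0.03125), -0.0032 without the 3 thin bins, and 0.0503 when fitted from 50 to 300 kb (exact sign-flip p = 0.03125). At equal distance the counts were 0.43 ± 0.02 higher on the log2 scale within the left side than within the desert (SD, n = 6 libraries, higher in 6 of 6; exact sign-flip p = 0.03125, which 6 libraries cannot go below; adjusted over 3 comparisons of the left side 0.0469). Without the 3 thin bins of the desert the difference was 0.34. Balancing, which sets all bin totals equal, brought it to -0.00 ± 0.01, so it is a difference in the counts as captured. The median bin of the left side held 23222 contacts and that of the desert side 20333. The decay plot shows the curves of the left side above that of the desert and running nearly parallel to it at short distances.

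**Figure D2:**
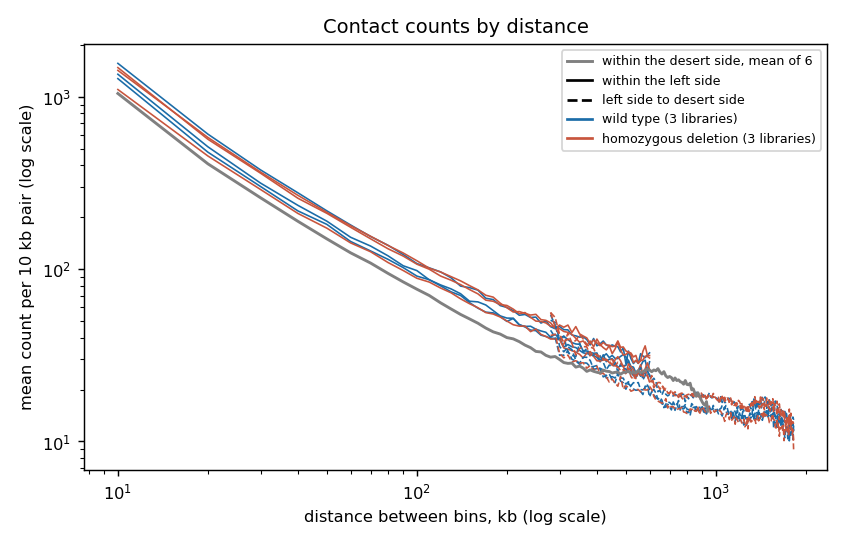
Mean count per pair of 10 kb bins (log scale) against distance in kb (log scale); thin lines are the 6 libraries, solid within the left side and dashed for pairs that span Meis2, and the grey line is the mean of the 6 libraries within the desert side. The 6 curves of the left side run parallel, with 1365 contacts at 10 kb and 29.5 at 500 kb on average.

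Pooled over distances, contacts across Meis2 were fewer than contacts of equal distance within the 2 sides, where such distances exist. The deficit was not present at the shortest distances. At 280 kb the spanning pairs (n = 6) averaged 41.2 to 56 counts per library, above both sides in every library. At 400 kb they lay between the left side and the desert in every library, and at 500 kb below both. Spanning pairs farther apart than any pair within a side had no expectation and were left out. This left 51645 to 63729 of the 100870 to 123537 spanning contacts per library. At distances longer than the left side, the expectation came from the desert alone. As log2 of observed over expected, the spanning contacts measured -0.16, -0.21 and -0.17 in wild type and -0.09, -0.11 and -0.15 in the homozygous libraries, negative in 6 of 6. The size of the deficit depended on the processing: after balancing the wild-type libraries measured -0.34, -0.33 and -0.34 and the homozygous ones -0.28, -0.26 and -0.29, and with only 500 kb on either side the count means were -0.27 and -0.21. As a description of position, the same measure with 300 kb on either side of a 220 kb gap was -0.14 ± 0.01 at Meis2 (SD, n = 6 libraries). Over 107 overlapping positions of that gap along the core its mean ran from -0.42 to 0.41, and 33 positions were lower than Meis2; balanced, Meis2 measured -0.21 ± 0.01 and 26 positions were lower.

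The 2 genotypes did not overlap in the spanning ratio, with homozygous libraries 0.06 higher on the log2 scale (wild type -0.18 ± 0.02, homozygous -0.12 ± 0.03, SD, n = 3; exact permutation p = 0.1, two-sided, the smallest possible, adjusted over 3 genotype comparisons 0.15). The difference depended on the pairs that set the expectation. Against all pairs of the core at the same distance, which include the spanning pairs themselves and reach every distance, it was 0.01 and the genotypes overlapped (exact permutation p = 0.6). Beside it, neighbouring bins took a smaller share of contacts within the left side in the homozygous libraries (29.3%, 29.9% and 31.4%) than in wild type (31.8%, 31.9% and 31.8%), also without overlap (exact permutation p = 0.1). Neighbouring bins do not themselves enter the spanning ratio in counts, whose pairs and expectation lie at 230 kb or more. Whether the 2 differences are related was not tested.

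The share of contacts within the left side that spanned more than 200 kb was 14.2%, 14.1% and 13.8% in wild type and 14.9%, 14.6% and 14.2% in the homozygous libraries. All 3 homozygous libraries lay above the wild-type libraries, though homozygous replicate 3 exceeded the highest wild-type library by little. Counted over pairs at least 20 kb apart, which leaves out neighbouring bins, the difference was 0.361 percentage points and the genotypes overlapped (exact permutation p = 0.2); for contacts over 300 kb it was 0.287 (exact permutation p = 0.2). The means were 14.0% ± 0.219 and 14.6% ± 0.353 (SD, n = 3; exact permutation p = 0.1, adjusted over 3 comparisons 0.15). The 3 genotype comparisons are drawn in the plot of values by library.

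**Figure D3:**
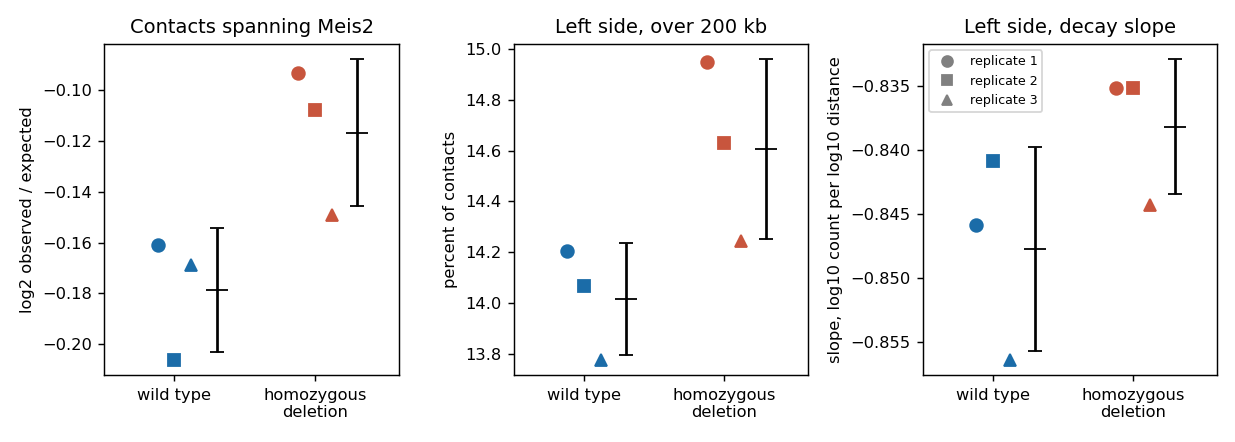
Values of each library by genotype: log2 observed over expected of the contacts spanning Meis2 at distances also found within a side, percent of contacts within the left side over 200 kb, and decay slope within the left side from 20 to 500 kb. Symbols mark the replicate number, bars the mean and SD of 3 libraries. The genotypes separate in the first and second panels (exact permutation p = 0.1 each) and overlap in the third (p = 0.2), and no vertical axis starts at 0.

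BC052040 met the desert less than the rest of the left side did. Here too, spanning pairs farther apart than any pair within a side did not enter. Counts between the gene's 20 bins and the desert measured -0.40, -0.41 and -0.39 (log2 observed over expected, expectation from pairs within the 2 sides) in wild type and -0.34, -0.33 and -0.39 in the homozygous libraries. The other 46 bins of the left side measured -0.01, -0.07 and -0.03 in wild type and 0.07, 0.03 and 0.00 in the homozygous libraries. Balanced, both were below the expectation in 6 of 6 libraries, the gene at -0.53 ± 0.03 and the other bins at -0.17 ± 0.04 (SD, n = 6). In counts the gene was lower than the other bins in 6 of 6 libraries, by 0.38 on the log2 scale (exact sign-flip permutation p = 0.03125; adjusted 0.0469).

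The gene lies nearer to the desert than most of the left side does. Read against spanning pairs at the same distance, an alternative chosen after seeing the data, the gap was smaller in counts, -0.15 ± 0.03 (SD, n = 6), and with balanced counts -0.26 ± 0.01 over the core and -0.25 ± 0.01 over the captured region. It was negative in 6 of 6 libraries under each of these.

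The low contact filled the gene from end to end. In these values by bin the expectation was the mean of spanning pairs at the same distance, so they are relative to the average spanning contact. Balanced contacts with the desert were below the expectation of their distance in all 20 BC052040 bins, and each of the 20 was below it in every one of the 6 libraries, with a median of -0.21 and a range of -0.28 to -0.06 on the log2 scale. Of the 38 bins upstream of the gene, 7 were below the expectation on average, 2 of them in every library, and the median was 0.06. None of the 8 bins between the gene and Meis2 was below it (0.02 to 0.13). The 10 lowest bins of the left side were all BC052040 bins, also when balancing was done over the whole captured region. Of the 20 lowest, balanced over the core, 18 were in the gene. The low contact did not end sharply at the gene: the bin just ahead of it measured -0.13, and the gene's last bin -0.06. The lowest was chr2:115620001-115630000, in the gene body, at -0.28 ± 0.04 (SD, n = 6). The bin of Mir1951 measured -0.23 ± 0.04. In the counts as deposited 15 of the 20 bins were below the expectation, with a median of -0.12 and a range of -0.65 to 0.23, so single bins of the gene differed more before balancing than after it.

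Inside the left side, balanced contacts of the same gene with the other bins were also below the mean of their distance. Balanced contacts between BC052040 and the 380 kb upstream of it were -0.08 ± 0.01 relative to pairs within the left side at the same distance, and those between the gene and the bins downstream -0.12 ± 0.01 (SD, n = 6 libraries each). Upstream bins met downstream bins over the top of the gene at 0.09 ± 0.01. Within the gene the value was 0.02 ± 0.00, within the upstream bins 0.05 ± 0.00 and within the 8 downstream bins -0.21 ± 0.01. Each sign was the same in 6 of 6 libraries. In counts as deposited the gene with its upstream bins measured -0.05 ± 0.01. The gene with its downstream bins measured -0.00 ± 0.06, the gene within itself 0.19 ± 0.04 and the upstream bins within themselves -0.06 ± 0.04. These last values depend on the balancing, and that of the upstream bins changed sign.

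Apart from Mir1951, the other genes of the left side met the desert at levels nearer to the mean of spanning pairs at their distance. Balanced values were 0.09 ± 0.01 for 4930528P14Rik, 0.03 ± 0.03 for Gm31351, 0.08 ± 0.04 for Gm31413, 0.04 ± 0.02 for Gm39910 and 0.00 ± 0.01 for 3110099E03Rik, all long non-coding RNA genes upstream of BC052040. Gm39911, just ahead of BC052040, measured -0.08 ± 0.04, Gm52524, at the end of BC052040 on the other strand, -0.06 ± 0.02, and Gm31590, between BC052040 and Meis2, 0.06 ± 0.01. The pseudogene Gm18967, which lies in a bin of 4930528P14Rik, measured 0.10 ± 0.05. BC052040 as a whole measured -0.18 ± 0.01. Its homozygous mean was -0.01 from the wild-type mean without overlap (exact permutation p = 0.1), but with the expectation from pairs within the 2 sides the balanced difference was 0.05, also without overlap (p = 0.1), so its direction depends on the expectation.

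Across the desert, the contacts of the left side had a coarse pattern, again read against spanning pairs at the same distance. For the 220 kb at the upstream end of the left side, balanced contacts were highest with the first 200 kb beyond Meis2 (0.32 ± 0.02, SD, n = 6 libraries). The 220 kb in the middle, which holds the start of BC052040, measured 0.17 ± 0.02 with the same stretch and -0.24 ± 0.01 with chr2:116480001-116680000. The 220 kb next to Meis2 measured -0.03 ± 0.01, -0.15 ± 0.02 and -0.19 ± 0.02 with successive 200 kb stretches from the near end of the desert, and 0.02 ± 0.02 and 0.03 ± 0.04 with the last 2. The stretch from 116480001 holds the 3 thin bins, which were left out of the balanced values; in counts as deposited it was at -0.47 to -0.65 from all 3 parts of the left side. Balancing within the core also raises bins at its outer edge, seen as a red margin in the map.

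Single spanning contacts stood out at 2 places. The strongest by counts and by values balanced over the core joined chr2:115850001-115860000, the last bin of the left side, which ends just short of the 3′ end of Meis2, to chr2:116890001-116900000, 1040 kb away, which holds the end of Tmco5 and part of the gene Gm46758. Wild-type libraries counted 49, 59 and 56 contacts there and homozygous libraries 45, 63 and 46, against a mean of 16.5 for spanning pairs of that distance. The 2 genotypes overlapped (log2 difference -0.17 in counts, exact permutation p = 0.5; adjusted over 16 named pairs 0.889).

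The excess was 1.69 ± 0.20 on the log2 scale in counts, 1.00 ± 0.15 after balancing over the core and 0.67 ± 0.15 after balancing over the captured region, where 3 other named spanning pairs ranked above it (SD, n = 6). The excess was not limited to 1 pair: the 15 pairs from 3 bins beside Meis2 to 5 bins around the end of Tmco5 held 380 to 560 contacts per library and measured 0.57 ± 0.07 balanced, and the 51 pairs around them 0.34 ± 0.03. The lower panel of the profile plot shows a broad rise toward Tmco5 rather than a narrow spike.

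**Figure D4:**
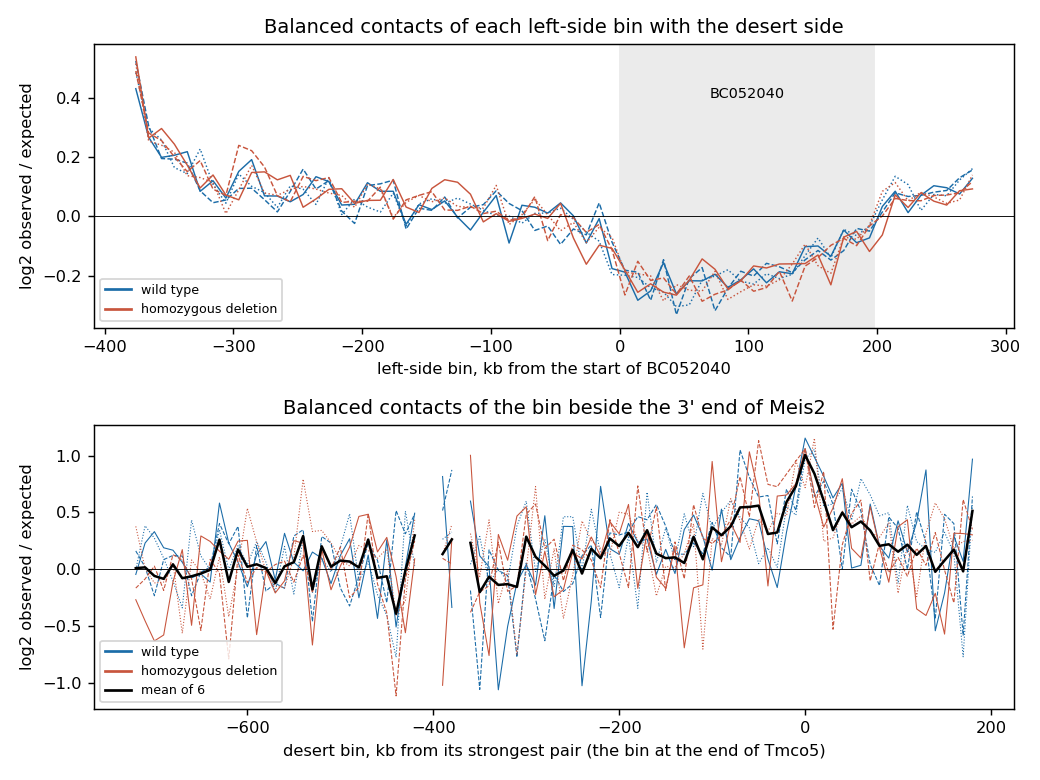
Upper panel, balanced contacts of each left-side bin with the whole desert side as log2 observed over expected, against kb from the start of BC052040 (grey, the gene), 1 line per library; lower panel, the same quantity for single pairs of the bin beside the 3′ end of Meis2, against kb from its strongest partner at the end of Tmco5, with the mean in black and gaps at thinly covered bins. In both panels the expectation is the mean of spanning pairs at the same distance. All 20 bins of BC052040 lie below 0 in all 6 libraries, and the mean in the lower panel reaches 1.00 at its peak.

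The other joined chr2:115510001-115520000, the bin of the 3110099E03Rik promoter printed above, to chr2:116090001-116100000, 580 kb away and just past the gene G630016G05Rik, which begins beside the Meis2 promoter. It was counted 32, 27 and 39 times by the wild-type libraries and 30, 48 and 43 times by the homozygous ones, against a mean of 22.5 at that distance. The value was 0.70 ± 0.18 in counts, 0.84 ± 0.20 balanced over the core and 0.77 ± 0.19 balanced over the captured region, where it was the highest spanning value. The genotypes overlapped (balanced difference 0.28, exact permutation p = 0.2). The 20 pairs around it measured 0.56 ± 0.09 balanced and the 57 pairs around those 0.36 ± 0.06. This pair was singled out from balanced values after they were seen; by counts it was not among the 5 highest.

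By counts, the other 4 of the 5 highest spanning pairs fell to 0.28 to 0.54 after balancing. Of these, 2 shared the bin beside Meis2, with partners at chr2:116720001-116730000 (counts 35, 43 and 57 in wild type, 37, 39 and 39 in the homozygous libraries) and chr2:116820001-116830000. The remaining 2 joined chr2:115390001-115400000 to chr2:116180001-116190000 and chr2:115340001-115350000, in 4930528P14Rik, to chr2:116220001-116230000. Spanning pairs had to reach a mean count of 20 to be named, which 1986 of 6600 did, with a median of 16.3 over all. Pairs with fewer contacts were thus not ranked, and the lowest named pairs are not the lowest of all. The 3 lowest named spanning pairs lay between -0.59 and -0.45 in counts and between -0.23 and -0.09 balanced, with SDs of 0.27 or more over libraries in counts and balanced. Ranked by balanced values, chosen after seeing the data, the lowest pair that reached this count was chr2:115710001-115720000, in BC052040, with chr2:116400001-116410000. It measured -0.63 ± 0.12 and was below -0.5 in 6 of 6 libraries. Its counts (16, 20 and 20 in wild type, 19, 24 and 24 in the homozygous libraries) averaged 20.5, however, above the mean of 17.6 at that distance.

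Within the left side no named pair reached the value of the strongest spanning pair. The highest by counts joined chr2:115510001-115520000, again the 3110099E03Rik promoter bin, to the bin beside Meis2, 340 kb away. Wild-type libraries counted 67, 76 and 77 contacts for it and homozygous libraries 47, 97 and 77, against a mean of 38.6 at that distance, an excess of 0.91 ± 0.20 in counts and 0.39 ± 0.15 balanced. The next joined chr2:115450001-115460000 to chr2:115820001-115830000, 370 kb away over the top of BC052040, with counts of 67, 61 and 61 in wild type and 56, 75 and 63 in the homozygous libraries; it measured 0.85 ± 0.14 in counts and 0.41 ± 0.15 balanced. The other 3 fell to 0.13 to 0.19 after balancing. The 3 lowest pairs all shared chr2:115790001-115800000, the bin of the left side with the fewest contacts (12331 against a median of 23222), and their values of -1.17 to -1.13 in counts became -0.34 to -0.04 after balancing.

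Of the 16 named pairs, 1 had genotypes that did not overlap, chr2:115500001-115510000 with chr2:115770001-115780000 (77, 78 and 88 in wild type, 71, 88 and 82 in the homozygous libraries; log2 difference relative to the distance mean -0.08, exact permutation p = 0.1, adjusted over the 16 pairs 0.889). Among the 3762 member pairs from which named pairs were drawn, 9.65% had genotypes that did not overlap. After balancing, the genotypes of that pair overlapped (exact permutation p = 0.3).

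The insulation score, the log2 mean count between the 100 kb on either side of a bin, could be set for 46 bins of the left side. It varied by 0.38 over them, against 1.99 over the 168 bins of the core; balanced, it varied by 0.31 and 0.74. It had 1 minimum that stood 0.2 or more below the peaks on both sides, at chr2:115550001-115560000, the bin of Gm39911 and the promoter printed above, 3 bins ahead of BC052040. There the score was 0.12, 0.05 and 0.09 in wild type and 0.05, 0.06 and 0.06 in the homozygous libraries. Upstream it peaked at chr2:115410001-115420000 (0.34 ± 0.06) and downstream at chr2:115650001-115660000 inside BC052040 (0.45 ± 0.02, SD, n = 6 libraries).

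The dip was shallow and its place was not the same in every library. Its depth was 0.27 in the mean profile and 0.23 to 0.34 in single libraries. In 4 libraries the minimum lay in that bin, and in replicate 2 of both genotypes it lay at chr2:115500001-115510000, 50 kb upstream. Balanced profiles had the dip 1 bin downstream with a depth of 0.17, and thus below the threshold. At 50 kb windows there were 3 minima. The deepest was chr2:115800001-115810000 (0.51), between BC052040 and Meis2 and next to the left-side bin with the fewest contacts. The next was chr2:115580001-115590000 at the start of BC052040 (0.39), and both were found within 2 bins in 6 of 6 libraries. The last, chr2:115450001-115460000 (0.20), was found in 4. At 200 kb windows there was none. Contacts between the 2 stretches on either side of the minimum were lower than within them at 20 to 300 kb, by 0.11 ± 0.02 in counts and 0.16 ± 0.02 balanced (log2, SD, n = 6, lower in 6 of 6), a split of the left side made from this profile and thus given as a description.

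**Figure D5:**
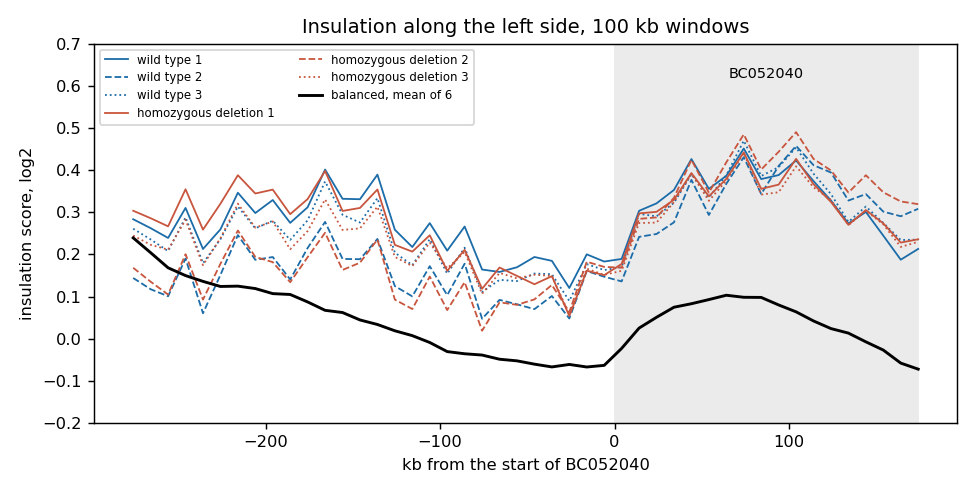
Insulation score (log2 mean contacts between the 100 kb on either side of a bin) against kb from the start of BC052040, which is shaded; coloured lines are the 6 libraries from counts, and the black line is the mean of 6 after balancing. The lines dip to 0.07 on average ahead of the gene and rise to 0.45 inside it, and the dashed lines, replicate 2 of both genotypes, run lower upstream.

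Replicate 2 stood apart in both genotypes along the left side. The mean score of the last 20 bins minus that of the first 20 was 0.15 in wild-type replicate 2 and 0.19 in homozygous replicate 2, and 0.01 to 0.06 in the other 4 libraries. After balancing all 6 libraries lay between -0.08 and -0.04. Without the replicate 2 libraries, an alternative chosen after seeing the data, the genotype difference in the spanning ratio was 0.04 in the share over 200 kb 0.606 percentage points and in the slope 0.0114, with exact permutation p = 0.333 each, the smallest that 2 against 2 libraries allow.

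No insulation score of the left side was called as changed between genotypes. With limma 0 of 46 bins passed an adjusted p of 0.05, as did 0% of the 168 bins of the core, and 0 of 46 had an unadjusted p under 0.05. The largest difference was 0.04. With balanced scores 0 bins were called, and 6 of 46 had an unadjusted limma p under 0.05, against 16 of 168 in the core. With a term for the replicate number 0 were called, and these counts were 2 and 24. In scores from counts, the genotypes failed to overlap in none of the 46 bins, against 3.57% of the bins of the core. On simulated scores of the core the fit recovered 26.7% of shifts of 0.1 and 100% of shifts of 0.2, so shifts under 0.1 were mostly out of reach.

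Over 20 kb pairs whose mean count reached 5, edgeR's quasi-likelihood test, without a replicate term, called 0 of 2177 member pairs at an adjusted p of 0.05, and 0% of the 8094 pairs of the captured region. At an unadjusted p under 0.05 it listed 79 member pairs, 3.63% of them against 3.69% over the region, and DESeq2 called 0 and listed 11. The genotypes did not overlap in 210 member pairs, 9.65%, against 8.96% over the region. On simulated counts the test recovered 41.5% of log2 changes of 0.5 and 91% of log2 changes of 1. The member with the lowest unadjusted p joined chr2:115660001-115680000, in BC052040, to chr2:116620001-116640000 (counts 58, 68 and 71 in wild type, 46, 45 and 49 in the homozygous libraries; log2 difference -0.54 ± 0.16 (SE), adjusted p near 1).

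At short range most pairs had lower values in the homozygous libraries, on the left side and elsewhere. All 32 pairs of neighbouring 20 kb bins within the left side had a negative log2 difference, with a median log2 difference of -0.07, and 27 of 31 pairs at 40 kb were lower, with a median of -0.03. Elsewhere in the captured region the medians at these distances were -0.06 (67 of 91 lower) and -0.03 (46 of 66 lower). From 120 to 200 kb the median was 0.02 within the left side and 0.02 elsewhere. Spanning pairs had a median of 0.02, members as a whole 0.01 and the whole region -0.01.

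Agreement of the libraries depended on the size of the bins and on balancing. Across the 8352 member pairs of 10 kb whose mean count reached 5, the log2 observed over expected values of any 2 libraries correlated at r = 0.62 to 0.68 (median 0.65; Spearman's rho 0.61 to 0.66), given as a description over pairs that share bins and are not independent. At 20 kb the median was 0.90 over 2042 pairs and at 40 kb 0.96 over 385 pairs. After balancing, which removes what is common to all pairs of a bin, the medians were 0.23, 0.58 and 0.87. At 40 kb after balancing, pairs within the left side gave 0.96 (n = 75) and spanning pairs 0.86 (n = 310). Libraries of the same genotype correlated at 0.648 on average at 10 kb, and those that differed in both genotype and number at 0.644.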

How the data were processed

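Capture Hi-C of testis was analysed in 6 libraries (3 wild type, 3 homozygous). The values the authors deposited are whole-number counts of contacts between 10 kb bins, without normalization; per the submitters' processing notes the build is mm10, and how reads were aligned and filtered is not given in the sources used here. The deposited trans table gives p-values and was used only to look up genes. Libraries were taken from the genotype and number in the file names and titles. Members, lists and tests were chosen with earlier results of these data known. Bins are counted from 1.

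Values by single bin, gene, stretch of the desert and named pair were read against pairs of the same kind (within or spanning) at the same distance. Otherwise observed contacts were divided by the mean of pairs at the same distance within either side, unless stated. With that expectation, spanning pairs farther apart than any pair within a side were left out. Balancing used 200 rounds of iterative correction without bins under 20% of the median total. Named pairs lay at least 50 kb apart with a mean count of at least 20: within and across, the 5 highest and 3 lowest log2 observed over expected (pseudocount 0.5), skipping pairs within 30 kb of one taken. All genes overlapping the left side, every insulation minimum and the peaks between were named. Genotypes were compared by two-sided exact permutation of 3 against 3 libraries and sides by exact sign flips over 6 libraries, with Benjamini-Hochberg adjustment. Bin pairs of 20 kb were tested over the captured region with edgeR 4.0.16 (TMM, quasi-likelihood), DESeq2 1.42.0 as an alternative, and insulation with limma 3.58.1, in R 4.3.3; both fits were tested on simulated data. Other values used Python 3.11.15 with numpy 2.4.6 and scipy 1.17.1. Counts limit the precision of 10 kb pairs, and PCR copies were not marked, so counting error is the least error. The same replicate number did not pair the libraries over bin pairs. Insulation deviations on the left side correlated between genotypes at 0.84, 0.92 and 0.37 within numbers 1 to 3. Between numbers 1 and 3 they correlated at 0.85 and 0.72, and between replicate 2 and another number at -0.92 to -0.66. Replicate 2 thus stood against the other numbers, and the labels do not say what a number shares.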

Additional observations from a re-analysis of the deposited data

How the results depend on the processing

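The genotype differences in the spanning ratio, the share over 200 kb and the slope kept their direction under every alternative run for them, and none could pass 0.05 with 3 against 3 libraries. With the replicate block, that is, differences between same-numbered libraries, the spanning ratio differed by 0.062, the share over 200 kb by 0.591 points and the slope by 0.0095 (exact sign-flip p = 0.25 each, the smallest possible). Over bin pairs the deviations of same-numbered libraries correlated at 0.08, 0.15 and 0.01, so the numbers were not taken to pair them; the block called 3 member pairs in edgeR and 8 in the region, 0.0988%, all 3 members lower in the homozygous libraries (log2 -0.15, -0.15 and -0.13, adjusted p = 0.0092) and joining neighbouring 20 kb bins at the start of BC052040 (chr2:115560001-115640000), and called 0 insulation bins. No other alternative called a member pair or a left-side bin.

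The slope difference between left side and desert became -0.0101 balanced, -0.0032 without thin bins and 0.0503 over 50 to 300 kb, and ranged from -0.00011 to 0.0061 without 1 library. The level difference became -0.0012 balanced. Without 1 library it ranged from 0.429 to 0.439 and the BC052040 difference from -0.385 to -0.371, with exact sign-flip p = 0.0625, the smallest that 5 libraries allow. The number of insulation minima was 0 balanced, 3 at 50 kb windows, 0 at 200 kb, 2 at a depth of 0.1 and 0 at 0.3. Named pairs whose genotypes did not overlap numbered 0 balanced, 6 with 1 sign in all 3 same-numbered pairs of the replicate block, and 1 to 6 without 1 library. The median correlation of libraries was 0.232 balanced, 0.699 at a mean count of 20, 0.903 at 20 kb (0.578 balanced) and 0.961 at 40 kb (0.868 balanced). The cause of these moves was not tested.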
